A study of Mus musculus with 16 samples.

Results

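The glucocorticoid receptor gene Nr3c1 and 9 genes known to be under the receptor's control (Fkbp5, Tsc22d3, Ddit4, Klf15, Cebpd, Mt1, Mt2, Sgk1 and Zbtb16) were followed across all arrays of the series. The 10 genes are a list of the receptor and well known targets, and their probes were found through the RefSeq accession that the array gives for each probe. Probes were found for 9 of the 10 genes, out of 24828 genes tested in the whole series. Zbtb16, which encodes a zinc finger transcription factor, had no probe matched by accession and is not analysed here. Each of the 9 measured genes was well above background on all 16 arrays.

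Gene expression was measured in the tibialis anterior, a fast muscle of the lower leg, in mouse offspring on one-colour Agilent arrays, with 200 ng of RNA labelled per array. The study asked how food restriction of the mother during late pregnancy, a model of low birth weight, bears on muscle gene expression in the offspring when these eat freely and when their food is limited. Of 4 groups, undernourished CR were calorie restricted (CR) offspring of dams given 50% less food in week 3 of gestation. Undernourished AL were ad libitum (AL) fed offspring of such dams, control CR were calorie restricted offspring of dams that were not food restricted, and control AL were ad libitum fed offspring of these control dams. Each group had 4 arrays, and each array carried a pool of RNA from 2 of the 8 mice of its group, so that the spread between arrays is a spread between pools. The labels used here give no strain, age, sex, litter, length or degree of calorie restriction, and no time of day or feeding state at collection.

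The glucocorticoid receptor is a nuclear receptor that is held in the cytoplasm by Hsp90 and its cochaperones until corticosterone, the main glucocorticoid of mice, binds it. It then enters the nucleus, binds DNA at glucocorticoid response elements and raises the transcription of many genes. In skeletal muscle, glucocorticoids are known for raising genes that slow protein synthesis, break down protein and spare glucose, and they rise in fasting.

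Promoter windows were matched for 7 of the 10 genes, 14 windows in all. Those of the metallothionein genes Mt1 and Mt2 and 1 window of the kinase gene Sgk1 are shown, because Mt1 and Mt2 are near neighbours that fell and Sgk1 a target that rose under calorie restriction, and their windows held metal response or full glucocorticoid response motifs. The sequences are from RefSeq, build GRCm38.p6, and each covers the 250 bases before one annotated start of the gene, 5′ to 3′ on the gene's strand, which is the + strand for all 3 windows. Mt1 lies at chr8:94178839-94179088, Mt2 at chr8:94172368-94172617 and the Sgk1 window at chr10:21993640-21993889. Capitals in Mt1 and Mt2 mark the core of the metal response element, TGCACNC or TGCGCNC, on either strand. Capitals in Sgk1 mark a full glucocorticoid response element, which is AGAACA followed by any 3 bases and then TGTTCT, and which begins 189 bases before the start.
Mt1: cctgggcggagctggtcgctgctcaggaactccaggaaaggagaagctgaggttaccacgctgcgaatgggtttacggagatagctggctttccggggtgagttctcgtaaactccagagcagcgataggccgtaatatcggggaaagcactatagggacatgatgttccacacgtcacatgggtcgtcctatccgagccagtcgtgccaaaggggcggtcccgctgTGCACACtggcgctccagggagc
Mt2: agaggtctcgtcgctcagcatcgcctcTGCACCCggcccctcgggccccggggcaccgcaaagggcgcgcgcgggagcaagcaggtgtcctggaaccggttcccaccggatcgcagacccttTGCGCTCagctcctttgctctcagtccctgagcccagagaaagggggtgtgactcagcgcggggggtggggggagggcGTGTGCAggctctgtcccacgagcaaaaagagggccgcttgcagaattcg
Sgk1: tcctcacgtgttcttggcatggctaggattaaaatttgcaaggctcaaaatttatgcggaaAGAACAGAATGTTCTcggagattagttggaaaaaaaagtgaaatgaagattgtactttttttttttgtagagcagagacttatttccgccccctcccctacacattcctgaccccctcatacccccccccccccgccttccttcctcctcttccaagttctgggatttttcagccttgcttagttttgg
The Mt1 window held 1 core of the metal response element and the Mt2 window held 3. Klf15 and Ddit4 held 1 each. Such a core occurred in 21.4% of 32851 promoter windows of the same length, and 1.26% held 3 or more. The full glucocorticoid response element occurred in 3 of the 32851 windows, or 0.00913%, and 1 of the 3 was this Sgk1 window. It was 1 of 6 Sgk1 windows, and the other windows of the measured genes did not hold it. Its shorter form AGAACA, which lies inside the full element, occurred in 16.1% of windows on either strand. A match shows these letters, not a bound site.

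Nr3c1, the receptor itself, was higher in calorie restricted muscle by a small amount. Levels are given on a log2 scale as the probe's signal over its array's 75th percentile, and levels of different genes' probes were not compared. The Nr3c1 levels were 3.02, 3.0, 3.17 and 3.01 in undernourished CR pools, against 2.94, 2.56, 2.84 and 2.61 in undernourished AL pools. They were 3.22, 2.86, 3.09 and 3.21 in control CR pools, against 2.46, 2.80, 2.76 and 3.07 in control AL pools. All 4 undernourished CR pools lay above all 4 undernourished AL pools, while the control CR and control AL pools overlapped. Averaged over both kinds of dam, the CR minus AL difference was 0.32 ± 0.10 on the log2 scale (SE, limma, adjusted p = 0.0162), a 1.25-fold higher level. It was 0.32 ± 0.14 in the offspring of undernourished dams (adjusted p = 0.118) and 0.32 ± 0.14 in those of control dams (adjusted p = 0.088), and neither passed the threshold of 0.05. The mean difference lost its call in 7 of 11 alternatives. These were quantile normalization (adjusted p = 0.0798) and normexp background correction (adjusted p = 0.741). The mean of its probes (adjusted p = 0.172) and the slide as a random block (adjusted p = 0.0558) lost it too. So did brain transcripts as a covariate (adjusted p = 0.228) and control AL pools 1 and 2 left out (adjusted p = 0.0669). The last was leaving out the 5 arrays with high skin or liver markers. Those 5 were control AL pools 1, 2 and 3, undernourished AL pool 3 and undernourished CR pool 2. Only pool 4 of the control AL group was then left. Values of that fit for the offspring of control dams and for the mean rest on this pool. Of 3 further Nr3c1 probes none passed in the mean comparison, with differences of 0.33, 0.11 and -0.06.

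Of the 9 measured genes, 7 differed between calorie restricted and ad libitum muscle in the mean over both kinds of dam, 2 higher and 5 lower, while 43% of all genes tested differed (22.9% higher and 20.1% lower). The share of all genes that counted as higher among those called was 53.2% with the 75th percentile, 63.4% with quantile normalization and 79.6% in the authors' table. The median difference was -0.96 over the 9 genes and 0.03 over all genes tested. In the offspring of undernourished dams 3 of the 9 were called, all lower, beside 20.3% of all genes (10.4% higher and 9.86% lower). In the offspring of control dams 4 of the 9 were called, 3 lower and 1 higher, beside 32.3% of all genes (17.2% higher and 15.1% lower). The arrays of both diets did not overlap for 2 of 9 genes in the offspring of undernourished dams (26.0% of all genes) and for 5 of 9 in those of control dams (31.8% of all genes).

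**Figure D1:**
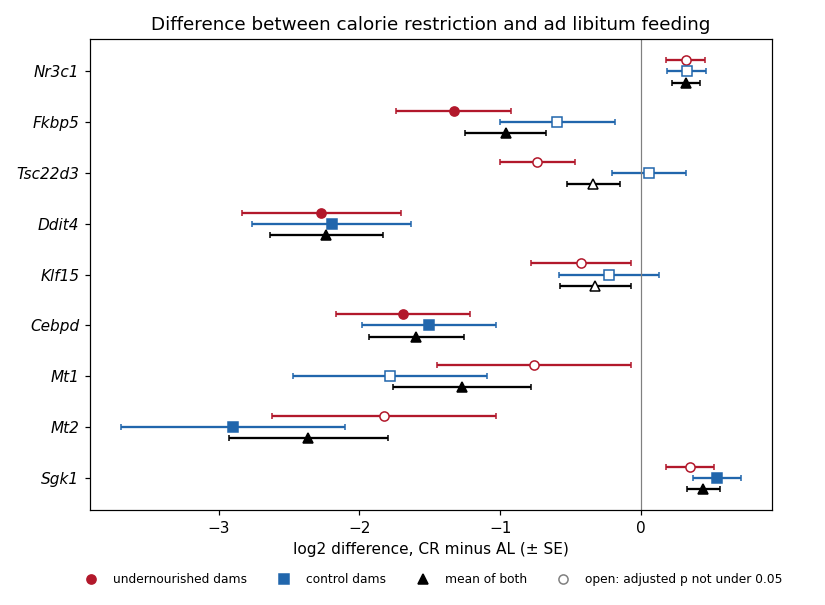
Difference between calorie restricted and ad libitum muscle for the 9 measured genes, as CR minus AL on the log2 scale (horizontal axis) with bars of 1 SE, for the offspring of undernourished dams, those of control dams and the mean of both. Filled symbols passed an adjusted p of 0.05 in limma. Ddit4, Mt2 and Cebpd lay farthest below 0, and Nr3c1 and Sgk1 lay above it.

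The calorie restricted arrays were on other slides than the ad libitum arrays and were scanned on another day, so offspring diet and slide or scan day cannot be told apart. The 75th percentile of signal ran from 387 to 589 on AL arrays and from 540 to 829 on CR arrays. The share of spots well above background was 66.4% to 74.0% on AL and 74.3% to 78.5% on CR arrays. Signals of the CR arrays were given with fewer digits than those of the AL arrays. No non-control spot was saturated on the 16 arrays. The 14 fast muscle markers had medians of 8.59 to 9.17 on every array. In the mean comparison 6 of the 14 were called lower in CR and 0 higher, with a median difference of -0.10. Among all genes 20.1% were lower and 22.9% higher. Brain transcripts moved with the diet: the median of 22 of 24 brain markers was -5.93 to -5.52 on undernourished CR, -2.12 to 0.09 on undernourished AL, -5.82 to -5.73 on control CR and -0.93 to 2.23 on control AL arrays. In the mean comparison 21 of these 22 were lower in CR, and on the CR arrays Nefm, Gria1, Gad1 and Slc1a2 were not well above background on any array of either group. The median of 15 of 16 skin markers was -3.84 to -1.68 on undernourished CR and -3.36 to -1.79 on undernourished AL arrays. It was -3.95 to -3.25 on control CR and -2.96 to 1.42 on control AL arrays. In the mean comparison 11 of the 15 were called lower in CR. The count was 13 in the offspring of control dams and 0 in those of undernourished dams. Of 11 leukocyte markers 9 were called lower in CR in the mean comparison, 9 in the offspring of control dams and 0 in those of undernourished dams. Their medians were -2.21 to -1.5, -2.01 to -1.05, -2.62 to -2.07 and -1.83 to -1.02 in the same order of groups. The median of 7 of 12 liver markers was -0.94 in undernourished AL pool 3 and between -5.52 and -3.97 on the other 15 arrays. That pool had the highest level of its group for every measured gene but Nr3c1. The part of these transcripts in the results on the receptor and its targets was not tested, beyond the fits with a brain covariate and with arrays left out that are given below. The brain covariate, scaled to its highest array, was 0.0035 to 0.0047 on CR arrays and 0.049 to 1 on AL arrays. Its values did not overlap between the diets, so a call kept or lost in that fit cannot separate brain transcripts from diet. In whole muscle, fewer cells of a type and less RNA per cell cannot be told apart.

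**Figure D2:**
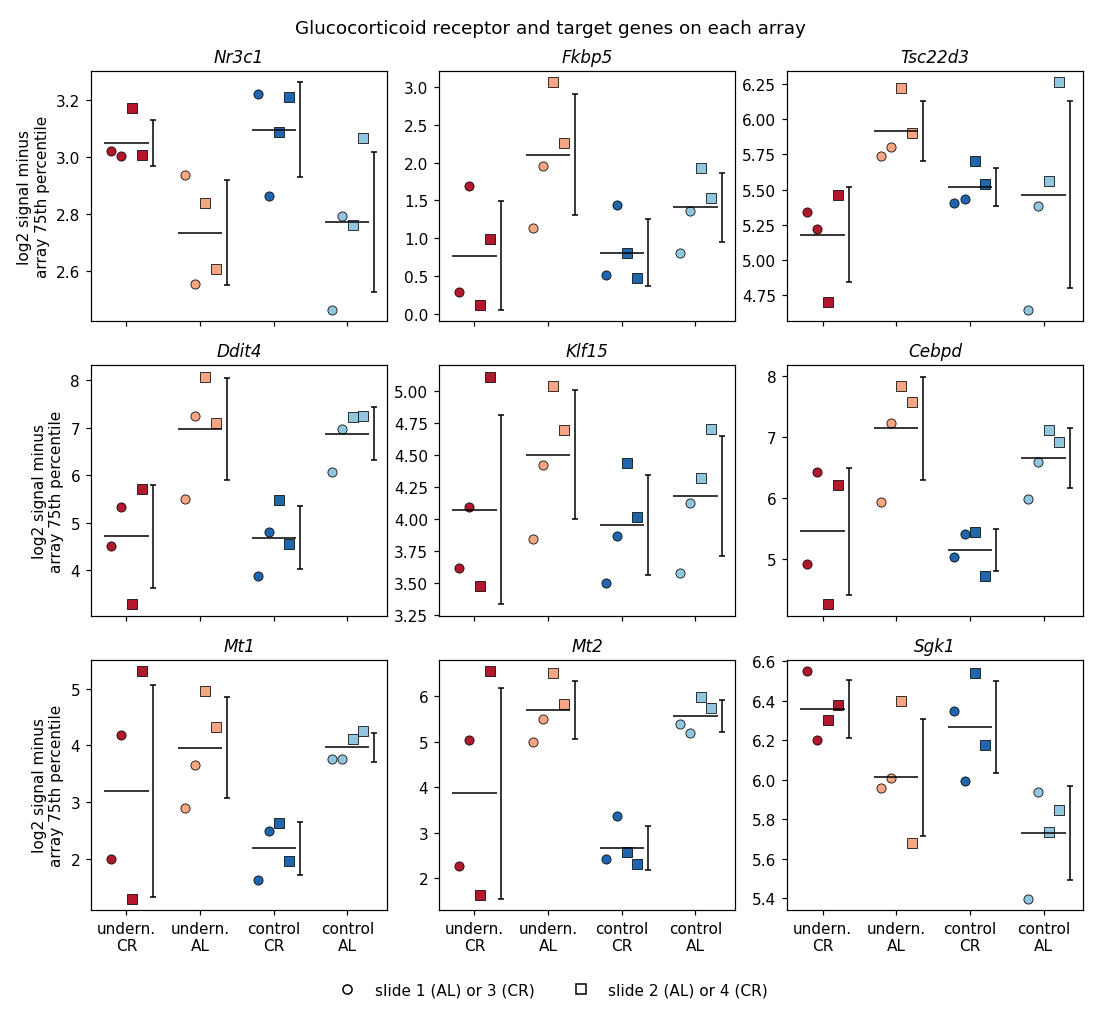
Level of each of the 9 genes on each of the 16 arrays (vertical axis, log2 of the signal over the array's 75th percentile; the scale differs between panels), by group from undernourished CR to control AL. Symbols show the slide within each diet, horizontal lines the group mean and bars 1 SD (n = 4 pools). Mt1 and Mt2 in the undernourished CR group spread over more than 4 log2 units, with 2 pools high and 2 pools low.

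Fkbp5 encodes a cochaperone that the receptor induces and that in turn lowers the receptor's affinity for its ligand. It fell under calorie restriction, by 0.96 ± 0.29 on the log2 scale in the mean over both kinds of dam (SE, limma, adjusted p = 0.0144), a 1.95-fold lower level. The Fkbp5 levels were 0.29, 1.69, 0.13 and 0.99 in undernourished CR pools, against 1.14, 1.96, 3.06 and 2.26 in undernourished AL pools. They were 0.52, 1.44, 0.81 and 0.48 in control CR pools, against 0.81, 1.36, 1.93 and 1.53 in control AL pools. Undernourished CR pool 2 and control CR pool 2 reached into the range of the ad libitum pools, so that the groups overlapped in both kinds of offspring. The difference was -1.33 ± 0.41 in the offspring of undernourished dams (adjusted p = 0.0324) and -0.60 ± 0.41 in those of control dams (adjusted p = 0.288). The first of these did not pass with any 1 of undernourished AL pools 2, 3 and 4 or undernourished CR pools 1 and 3 left out, where its adjusted p was 0.0541, 0.0999, 0.0701, 0.0892 and 0.0936. In the mean comparison a pair of further Fkbp5 probes gave -1.07 and -1.47, with adjusted p of 0.00662 and 0.00473 in the fit of all probes. The mean difference did not pass with normexp background correction (adjusted p = 0.0853) or in the authors' table (adjusted p = 0.213). The interaction of both diets was -0.74 ± 0.58 (SE, limma, adjusted p = 0.668). One further probe gave -1.45 in the offspring of undernourished dams (adjusted p = 0.019) and -0.69 in those of control dams (adjusted p = 0.196). The other gave -1.42 (adjusted p = 0.0631) and -1.51 (adjusted p = 0.0347) in the same order, so which kind of offspring passed depended on the probe.

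Ddit4 and Cebpd fell under calorie restriction in both kinds of offspring. Ddit4 (REDD1) encodes an inhibitor of mTORC1 signalling, through which glucocorticoids and other stresses slow protein synthesis in muscle. The Ddit4 levels were 4.51, 5.33, 3.28 and 5.71 in undernourished CR pools, against 5.51, 7.24, 8.07 and 7.09 in undernourished AL pools. They were 3.87, 4.81, 5.48 and 4.56 in control CR pools, against 6.06, 6.98, 7.22 and 7.25 in control AL pools. Only undernourished AL pool 1 lay within the range of the calorie restricted pools of its dams' diet, and the control groups did not overlap. In the mean over both kinds of dam Ddit4 fell by 2.23 ± 0.40 (SE, limma, adjusted p = 0.000494), a 4.70-fold lower level. The fall was 2.27 ± 0.57 in the offspring of undernourished dams (adjusted p = 0.0122), close in size to that in the offspring of control dams, and the interaction of both diets was -0.07 ± 0.80 (adjusted p = 0.980), with a 95% interval of -1.78 to 1.64. Without the 5 arrays with high skin or liver markers, Ddit4 did not pass in the offspring of undernourished dams (adjusted p = 0.0613). Nor did it pass in those of control dams, where only control AL pool 4 was left of its group. With normexp background correction its adjusted p was 0.138 and 0.0572, in the same order of dams.

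Cebpd encodes a C/EBP transcription factor that glucocorticoids induce and that acts in the acute phase response. The Cebpd levels were 4.92, 6.42, 4.25 and 6.20 in undernourished CR pools, against 5.93, 7.23, 7.83 and 7.56 in undernourished AL pools. They were 5.03, 5.40, 5.43 and 4.72 in control CR pools, against 5.98, 6.58, 7.11 and 6.92 in control AL pools. The control groups did not overlap, while undernourished CR pools 2 and 4 lay above undernourished AL pool 1. Cebpd fell by 1.60 ± 0.34 in the mean over both kinds of dam (SE, limma, adjusted p = 0.00164), a 3.02-fold lower level. The difference was -1.69 ± 0.48 in the offspring of undernourished dams (adjusted p = 0.0224) and -1.5 ± 0.48 in those of control dams (adjusted p = 0.0256). The first did not pass without undernourished AL pool 3 or 4 or undernourished CR pool 1 or 3 (adjusted p of 0.0594 to 0.0694), nor the second without control AL pool 3 or 4 or control CR pool 1 or 4 (adjusted p of 0.0506 to 0.0681). With normexp background correction the adjusted p was 0.236 and 0.159. Without the 5 arrays with high skin or liver markers it was 0.0504 in the offspring of undernourished dams. The difference in those of control dams did not pass there either, with only control AL pool 4 left of its group. The mean differences of Cebpd and Ddit4 passed under all 11 alternative settings and with each of the 16 arrays left out.

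Mt2 and Mt1 encode metallothioneins, small proteins that bind zinc and copper and that glucocorticoids and metals both induce. Mt2 fell by 2.36 ± 0.56 in the mean over both kinds of dam (SE, limma, adjusted p = 0.0037), a 5.14-fold lower level. The Mt2 levels were 2.26, 5.04, 1.64 and 6.54 in undernourished CR pools, against 4.99, 5.49, 6.50 and 5.81 in undernourished AL pools. They were 2.42, 3.36, 2.58 and 2.32 in control CR pools, against 5.38, 5.18, 5.97 and 5.74 in control AL pools. All control CR pools lay below all control AL pools, whereas undernourished CR pools 2 and 4 lay within or above the ad libitum range and pools 1 and 3 far below it. The difference was -1.83 ± 0.80 in the offspring of undernourished dams (adjusted p = 0.117) and -2.90 ± 0.80 in those of control dams (adjusted p = 0.0122). Without undernourished CR pool 4 the difference in the offspring of undernourished dams was -2.72 and passed (adjusted p = 0.0098), and without pool 3 it was -1.08 (adjusted p = 0.322). The interaction was 1.07 ± 1.12 (adjusted p = 0.754), with a 95% interval of -1.34 to 3.47. Leaving out the 5 arrays where skin or liver markers were high was a choice made after seeing the data. It left only pool 4 of the control AL group. Mt2 then did not pass in the mean or in the offspring of control dams. The call in the offspring of control dams was also lost with normexp (adjusted p = 0.0828), with brain transcripts as a covariate (adjusted p = 0.0694) and without control AL pools 1 and 2 (adjusted p = 0.0515).

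The Mt1 levels, each the mean of 10 spots of 1 probe, were 2.0, 4.19, 1.30 and 5.31 in undernourished CR pools, against 2.89, 3.66, 4.97 and 4.32 in undernourished AL pools. They were 1.63, 2.49, 2.64 and 1.97 in control CR pools, against 3.76, 3.75, 4.12 and 4.25 in control AL pools. The control groups did not overlap, while undernourished CR pool 4 lay above all undernourished AL pools, pool 2 among them and pools 1 and 3 below them. Mt1 fell by 1.27 ± 0.49 in the mean over both kinds of dam (SE, limma, adjusted p = 0.0474), a 2.42-fold lower level. The difference was -0.76 ± 0.69 in the offspring of undernourished dams (adjusted p = 0.468) and -1.78 ± 0.69 in those of control dams (adjusted p = 0.0608), and the interaction was 1.03 ± 0.98 (adjusted p = 0.727). The mean difference of Mt1 passed only just: with the slide as a random block its adjusted p was 0.123, and it passed with 3 of the 16 arrays left out in turn (undernourished AL pool 1, undernourished CR pool 2 and undernourished CR pool 4) but not with any of the other 13, where its adjusted p was 0.0538 to 0.0969. The difference in the offspring of control dams passed without undernourished CR pool 3 (adjusted p = 0.0309) or pool 4 (adjusted p = 0.0214). Mt1 in the offspring of undernourished dams moved to -1.46 without undernourished CR pool 4 and to -0.13 without pool 3. The skin marker median was raised in undernourished CR pool 2, at -1.68, and not in pool 4, and its part in the metallothionein levels was not tested.

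Sgk1, a serum and glucocorticoid regulated kinase that acts on ion channels and on FoxO factors, rose under calorie restriction. The Sgk1 levels were 6.55, 6.20, 6.30 and 6.38 in undernourished CR pools, against 5.96, 6.01, 6.40 and 5.68 in undernourished AL pools. They were 6.35, 5.99, 6.54 and 6.18 in control CR pools, against 5.40, 5.94, 5.73 and 5.85 in control AL pools. The control groups did not overlap, and undernourished AL pool 3 lay among the undernourished CR pools. Sgk1 rose by 0.44 ± 0.12 in the mean over both kinds of dam (SE, limma, adjusted p = 0.00817), a 1.36-fold higher level. The difference was 0.35 ± 0.17 in the offspring of undernourished dams (adjusted p = 0.16) and 0.54 ± 0.17 in those of control dams (adjusted p = 0.0248). The one in the offspring of control dams did not pass without control AL pool 1 (adjusted p = 0.0842), control CR pool 1 (adjusted p = 0.0611) or control CR pool 3 (adjusted p = 0.0799). It was also lost with quantile normalization (adjusted p = 0.134), normexp (adjusted p = 0.777) and brain transcripts as a covariate (adjusted p = 0.243). The same happened without control AL pools 1 and 2 (adjusted p = 0.114) and without the 5 arrays with high skin or liver markers. The last left only pool 4 of the control AL group. With brain transcripts as a covariate the mean difference of Sgk1 did not pass (adjusted p = 0.083), nor did it with normexp background correction (adjusted p = 0.561).

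Tsc22d3 and Klf15 were the measured targets that did not pass in any of the diet comparisons. Tsc22d3 (GILZ) encodes a leucine zipper protein that carries part of the anti-inflammatory action of glucocorticoids. The Tsc22d3 levels were 5.34, 5.22, 4.70 and 5.46 in undernourished CR pools, against 5.74, 5.80, 6.22 and 5.90 in undernourished AL pools. They were 5.41, 5.43, 5.70 and 5.54 in control CR pools, against 4.64, 5.39, 5.56 and 6.26 in control AL pools. All undernourished CR pools lay below all undernourished AL pools, while the control AL pools spread on both sides of the control CR pools. The difference was -0.74 ± 0.26 in the offspring of undernourished dams (SE, limma, adjusted p = 0.0614) and 0.06 ± 0.26 in those of control dams (adjusted p = 0.894), and the interaction was -0.79 ± 0.37 (adjusted p = 0.52), with a 95% interval of -1.59 to 0.0037. The difference in the offspring of undernourished dams passed without control AL pool 1 (adjusted p = 0.0213) or control AL pool 4 (adjusted p = 0.0209), which share the estimate of spread. In the offspring of control dams the sign of Tsc22d3 turned with control AL pool 1 left out (-0.22), with quantile normalization (-0.12) and with brain transcripts as a covariate (-0.64). The second Tsc22d3 probe gave -0.53 in the mean comparison (adjusted p = 0.0275 in the fit of all probes), beside -0.34 ± 0.19 for the first (adjusted p = 0.158), and the first also passed with quantile normalization (-0.46, adjusted p = 0.0199).

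Klf15 encodes a transcription factor that the receptor induces and that raises enzymes of amino acid breakdown. Its levels were 3.47 to 5.11 in undernourished CR pools, against 3.84 to 5.04 in undernourished AL pools. They were 3.5 to 4.44 in control CR pools, against 3.57 to 4.70 in control AL pools, so that the groups overlapped throughout. The difference in the mean over both kinds of dam was -0.33 ± 0.25 (SE, limma, adjusted p = 0.315), and a second Klf15 probe gave 0.20 (adjusted p = 0.625).

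The maternal diet comparisons called none of the 9 genes. Undernourished AL against control AL called 0 of 9 genes, beside 0.0322% of all genes tested (8 genes, 0.0121% higher and 0.0201% lower), and 4795 genes but 0 of the 9 had an unadjusted p under 0.05. With the slide, which held both kinds of dam, as a fixed block 1969 genes were called, and with 1 array left out 2 to 2319 (the highest without control AL pool 4), but 0 of the 9 in each of these fits. The Fkbp5 difference there was 0.70 ± 0.41 (SE, limma, adjusted p = 0.369), with 3.06 in undernourished AL pool 3 the highest Fkbp5 level of the series. It was 0.38 without that pool, the one with raised liver markers, and 1.02 without undernourished AL pool 1. Without the 5 arrays with high skin or liver markers, which left only control AL pool 4 of its group, it was 0.26. The further Fkbp5 probes gave 0.62 and -0.34. In the same comparison the second Klf15 probe gave 0.97 (unadjusted p = 0.0439 in limma, adjusted p = 0.23), beside 0.32 for the brightest. Within slide 1 the undernourished AL minus control AL difference of Fkbp5 was 0.46 and within slide 2 it was 0.93. Undernourished CR against control CR called 0 of 9 genes, beside 0% of all genes tested, while 715 genes and none of the 9 had an unadjusted p under 0.05. These counts use only the brightest probe of each gene. For Nr3c1 that probe gave -0.04 in this comparison. Its further probes gave -0.42, -0.25 and -0.32 (unadjusted p = 0.0356, 0.0792 and 0.101 in limma, adjusted p = 0.9999 for each). The Mt2 difference there was 1.2 ± 0.80 and the Mt1 difference 1.01 ± 0.69 (adjusted p = 0.9999 for both), with 95% intervals of -0.50 to 2.90 and -0.46 to 2.49. The interaction called 0 of 9 genes beside 0.00403% of all genes (1 gene), and the mean maternal difference 0 of 9 beside 0% of all genes, with 2397 and 2609 genes at an unadjusted p under 0.05. Leaving out undernourished CR pool 4 moved the CR differences to 0.31 for both Mt2 and Mt1, and leaving out pool 3 moved them to 1.94 for Mt2 and 1.65 for Mt1.

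Several of the targets varied together from pool to pool inside the groups, and in the AL groups part of this shared variation lay between slides. Each array's deviation from its group mean was taken for every gene, and the 8 other genes were set against Fkbp5 over the 16 arrays by Pearson's r and Spearman's rho with 100000 permutations within groups, adjusted over the 8 relations. Cebpd followed Fkbp5 with r = 0.908 and rho = 0.932 (adjusted permutation p = 0.00128 and 0.0012). An r with Fkbp5 as high was found in 0.0121% of genes for Cebpd, 0.32% for Ddit4, 0.991% for Mt1, 1.87% for Mt2, 2.99% for Klf15, 10% for Tsc22d3, 41.3% for Sgk1 and 68.4% for Nr3c1. These shares are over the genes with a value on every array, and they count Fkbp5 itself. Ddit4 gave r = 0.811 and rho = 0.859 (adjusted permutation p = 0.0141 and 0.00462). Mt1 gave r = 0.743 and rho = 0.844 (adjusted permutation p = 0.0164 and 0.00462), and Mt2 r = 0.687 and rho = 0.891 (adjusted permutation p = 0.0164 and 0.00184). Klf15, which did not pass in any diet comparison, gave r = 0.638 and rho = 0.726 (adjusted permutation p = 0.0427 and 0.0134). Tsc22d3 gave r = 0.479 and rho = 0.624 (adjusted permutation p = 0.0682 and 0.03). Nr3c1 gave r = -0.162 and rho = -0.291 (adjusted permutation p = 0.646 and 0.355), and Sgk1 r = 0.122 and rho = 0.121 (adjusted permutation p = 0.708 and 0.694).

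Without the 2 arrays farthest from the median deviation of the gene set against Fkbp5, r was 0.882 for Cebpd, 0.711 for Ddit4, 0.877 for Mt1, 0.854 for Mt2, 0.648 for Klf15, 0.54 for Tsc22d3, -0.466 for Nr3c1 and -0.0902 for Sgk1. The 8 arrays of each diet lay on slides of their own and were also taken alone, with all 576 permutations within groups. Each group spans 2 slides, so these values, and their p, carry the slide difference as well. Among the CR arrays r with Fkbp5 was 0.878 for Cebpd (exact permutation p = 0.0295), 0.738 for Mt1 (exact permutation p = 0.128), 0.752 for Mt2 (exact permutation p = 0.141) and 0.674 for Ddit4 (exact permutation p = 0.139). Among the AL arrays it was 0.948 for Cebpd (exact permutation p = 0.00174, the smallest these permutations can give), 0.918 for Mt1 (exact permutation p = 0.0139), 0.928 for Mt2 (exact permutation p = 0.0156) and 0.946 for Ddit4 (exact permutation p = 0.0104). Nr3c1 ran against Fkbp5 among the CR arrays, with r = -0.722 (exact permutation p = 0.00347), and gave r = 0.143 among the AL arrays (exact permutation p = 0.729). Klf15 gave r = 0.425 among the CR arrays (exact permutation p = 0.439) and 0.888 among the AL arrays (exact permutation p = 0.0156). Over the 36 pairs of the 9 genes, 30 correlations were above 0 and 14 above 0.7, from -0.214 between Nr3c1 and Mt2 to 0.963 between Mt1 and Mt2, with a median of 0.561. These values share the array's depth and scaling. In an alternative added after seeing the data, each array's deviation was taken from the mean of its group on its own slide, which leaves 8 pairs of arrays and 256 permutations. The r with Fkbp5 was then 0.872 for Cebpd (exact permutation p = 0.00781, the smallest possible), 0.842 for Ddit4 (exact permutation p = 0.0156), 0.77 for Mt1 and 0.741 for Mt2 (exact permutation p = 0.0312 for both) and 0.729 for Klf15 (exact permutation p = 0.0234). Adjusted over the 8 relations, the exact permutation p of these 5 was 0.05, which is not under the threshold. It was 0.375 for Tsc22d3 (r = 0.322) and Nr3c1 (r = -0.342) and 0.797 for Sgk1 (r = 0.0949). Over the 36 pairs centred by slide, 29 correlations were above 0 and 16 above 0.7, with a median of 0.558.

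**Figure D3:**
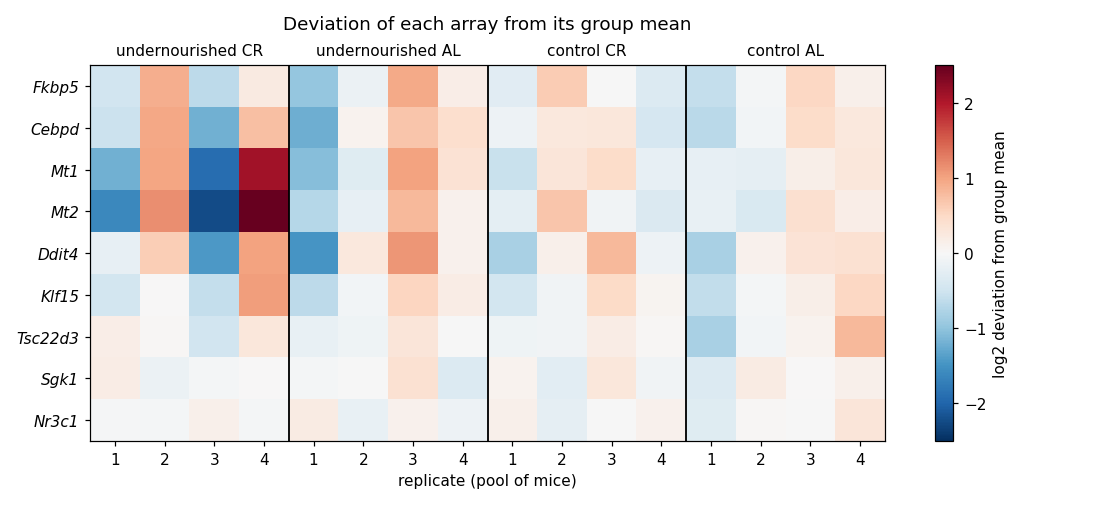
Deviation of each of the 16 arrays from its group mean (colour, log2 units) for the 9 genes, with Fkbp5 and the genes that followed it in the upper rows and Sgk1 and Nr3c1 in the lowest. Undernourished CR pools 2 and 4 lay above their group mean in Fkbp5, Cebpd, Mt1, Mt2 and Ddit4, and pools 1 and 3 below it.

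In the AL groups the targets also differed by slide. Slide 2, with pools 3 and 4 of both AL groups, was compared with slide 1, with pools 1 and 2, and all 9 genes were higher on slide 2, by a median of 0.74, against 0.08 for all genes tested. None of the 9 passed in limma, beside 1.78% of all genes (0.701% higher and 1.08% lower), though 6 of the 9, and 5560 of all genes, had an unadjusted p under 0.05 and 2 of 9 (Mt1 and Mt2) did not overlap between the slides, beside 7.67% of all genes. Ddit4 was 0.96 ± 0.42 higher on slide 2 (SE, adjusted p = 0.229), Cebpd 0.93 ± 0.29 (adjusted p = 0.116), Mt1 0.90 ± 0.27 (adjusted p = 0.102), Fkbp5 0.88 ± 0.28 (adjusted p = 0.114) and Mt2 0.74 ± 0.20 (adjusted p = 0.0808). Klf15 was 0.70 ± 0.20 higher (adjusted p = 0.0926), Tsc22d3 0.59 ± 0.25 (adjusted p = 0.206), Nr3c1 0.13 ± 0.16 (adjusted p = 0.688) and Sgk1 0.09 ± 0.19 (adjusted p = 0.83), the last turning to -0.09 with quantile normalization. Between slides 4 and 3 of the CR groups 0 of 9 passed, beside 1.26% of all genes (1.12% higher and 0.133% lower), and the median of the 9 was 0.07. Slide and the mice pooled on it cannot be told apart. Every pair of slides carries the diet and the scan day together, and the diet difference of Ddit4, Cebpd, Mt2, Fkbp5, Nr3c1 and Sgk1 had one sign in all pairs. For Ddit4, CR slide 3 minus AL slide 1 was -1.45 and CR slide 4 minus AL slide 2 was -3.09 in the offspring of undernourished dams, and -2.18 and -2.21 in those of control dams.

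The genes outside the list whose within-group deviations were most like those of Fkbp5 over the 16 arrays were Tax1bp1 (r = 0.939), Tor1aip1 (r = 0.928) and 6430548M08Rik (r = 0.904). Of these, 6430548M08Rik was lower in CR by 1.19 ± 0.22 on the log2 scale (SE, limma, adjusted p = 0.000666), Tor1aip1 was higher by 0.45 ± 0.13 (adjusted p = 0.0106), and Tax1bp1 differed by -0.03 ± 0.10 (adjusted p = 0.804). For Nr3c1 the most alike were Rdh7 (r = 0.898), Cbfb (r = 0.864) and Atp6ap1 (r = 0.862). They were picked as the highest among all genes, so the size of r is a description.

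The other genes of the pathway were described in lists, by the CR minus AL difference in the mean over both kinds of dam. Among 12 genes of the chaperone complex that holds the receptor, 4 rose and 2 fell, with a median of -0.05, beside 22.9% higher and 20.1% lower among all genes in this comparison. Fkbp4, the cochaperone that Fkbp5 competes with and that helps the receptor move to the nucleus, rose by 0.74 ± 0.10 (SE, limma, adjusted p = 6.07e-05), and Stub1, a ubiquitin ligase of chaperone clients, rose by 0.40 ± 0.09 (adjusted p = 0.00328). Hsp90aa1, the inducible Hsp90, fell by 0.46 ± 0.16 (adjusted p = 0.0333) and the phosphatase gene Ppp5c by 0.48 ± 0.14 (adjusted p = 0.0134), and both were above 0 in the authors' table. Of 11 alternatives Hsp90aa1 lost its call in 6, among them the slide as a random block and the brain covariate, and in 8 of 16 fits with 1 array left out. Ppp5c lost its call in 4 alternatives, and Stub1 in 3, among them the brain covariate. Fkbp4 lost its call with normexp. Of 6 genes of ligand handling, Abcb1b, a drug and steroid exporter, rose by 0.46 ± 0.09 (adjusted p = 0.000819) and H6pd, which supplies NADPH to the corticosterone-forming enzyme, fell by 0.39 ± 0.13 (adjusted p = 0.0258). Hsd11b1, that enzyme, differed by 0.26 ± 0.17 in the offspring of undernourished dams (adjusted p = 0.304) and by -0.45 ± 0.17 in those of control dams (adjusted p = 0.0545), opposite signs that gave -0.10 in the mean. The difference in the offspring of control dams passed with quantile normalization (adjusted p = 0.046) and without control AL pool 2 or 4 or control CR pool 4 (adjusted p of 0.0214 to 0.0466). Its interaction was 0.70 ± 0.24 (unadjusted p = 0.0101 in limma, adjusted p = 0.493). H6pd lost its call in 5 of 11 alternatives, among them the slide as a random block, and in 5 of 16 fits with 1 array left out. Abcb1b lost its call with normexp.

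Of 12 coregulators 4 rose and 2 fell, with a median of 0.17, beside the same 22.9% and 20.1% of all genes. The histone acetyltransferase genes Crebbp and Ep300 fell by 1.04 ± 0.12 (SE, limma, adjusted p = 1.1e-05) and 0.82 ± 0.13 (adjusted p = 0.000185). Their CR and AL pools did not overlap in either kind of offspring. Both genes lost their call with normexp. Over the alternatives and the fits with 1 array left out the Crebbp difference ran from -1.10 to -0.045. Nrip1, a corepressor, rose by 0.54 ± 0.17 (adjusted p = 0.0177) and Ncoa1, a steroid receptor coactivator, by 0.46 ± 0.08 (adjusted p = 0.000449). Ncoa1 lost its call with normexp. Nrip1 differed by 0.25 ± 0.24 in the offspring of undernourished dams (adjusted p = 0.48) and by 0.82 ± 0.24 in those of control dams (adjusted p = 0.0158), and its mean call was lost in 5 of 11 alternatives, among them the slide as a random block and the brain covariate. The call of Nrip1 in the offspring of control dams was lost without control AL pool 1 (adjusted p = 0.0543), control CR pool 3 (adjusted p = 0.0537) or control CR pool 4 (adjusted p = 0.0513).

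Of 28 measured genes of 30 further glucocorticoid targets, 11 fell and 1 rose in the mean over both kinds of dam, with a median of -0.36, beside 20.1% lower and 22.9% higher among all genes. The 4 with the largest falls were Pdk4, which restrains pyruvate oxidation, Angptl4, an inhibitor of lipoprotein lipase, and the atrophy ubiquitin ligase genes Fbxo32 and Trim63. Pdk4 fell by 2.84 ± 0.62 (SE, limma, adjusted p = 0.00216), Fbxo32 by 2.2 ± 0.39 (adjusted p = 0.00044) and Trim63 by 1.82 ± 0.31 (adjusted p = 0.000345), each in the mean over both kinds of dam. Angptl4 fell by 2.34 ± 0.49 (SE, limma, adjusted p = 0.00156), and it fell by 2.29 ± 0.69 in the offspring of undernourished dams (adjusted p = 0.0306) and by 2.38 ± 0.69 in those of control dams (adjusted p = 0.0166). The Angptl4 call in the offspring of undernourished dams was lost with normexp (adjusted p = 0.138), with the slide as a random block (adjusted p = 0.0545), without the 5 arrays with high skin or liver markers (adjusted p = 0.0553), and without any 1 of undernourished AL pools 1, 2 and 4 or undernourished CR pools 1 and 3 (adjusted p of 0.06 to 0.0903). That in the offspring of control dams was lost with the brain covariate (adjusted p = 0.0701) and without control CR pool 1 or 2 (adjusted p = 0.0544 and 0.0546). It was also lost without the 5 arrays, where only control AL pool 4 was left of its group. The 1 that rose was the clock gene Per1, by 0.46 ± 0.17 (adjusted p = 0.0394), named here after its value was seen. Per1 differed by -0.01 ± 0.24 in the offspring of undernourished dams (adjusted p = 0.974) and by 0.93 ± 0.24 in those of control dams (adjusted p = 0.00814), with an interaction of -0.94 ± 0.34 (unadjusted p = 0.0135 in limma, adjusted p = 0.493). The mean call of Per1 was lost in 6 of 11 alternatives and in 10 of 16 fits with 1 array left out (adjusted p of 0.0515 to 0.0805 in these 10), and the call in the offspring of control dams in 4 alternatives, among them the brain covariate (adjusted p = 0.192). Several of these targets, among them Pdk4, Fbxo32 and Trim63, are also under FoxO control, and the list holds them only as genes glucocorticoids are known to raise.

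Among 8 Klf15 targets of amino acid breakdown 1 rose and 1 fell, with a median of 0.07, beside 22.9% higher and 20.1% lower among all genes. Acadsb, a branched short-chain acyl-CoA dehydrogenase gene, rose by 0.77 ± 0.10 (adjusted p = 5.6e-05), and Bckdha, a subunit gene of branched-chain ketoacid dehydrogenase, fell by 0.27 ± 0.10 (SE, limma, adjusted p = 0.0349), with a value of 0.26 in the authors' table. The call of Bckdha was lost in 5 of 11 alternatives and in 10 of 16 fits with 1 array left out, and that of Acadsb with normexp. Among 8 measured genes of 9 in a list of the metal and oxidant response, kept beside the metallothioneins, 3 fell and none rose, with a median of -0.44, beside 20.1% lower and 22.9% higher among all genes. Mt3, the metallothionein of brain, fell by 1.15 ± 0.24 (adjusted p = 0.00137), beside the brain transcripts of the AL arrays. Hmox1, heme oxygenase, fell by 0.86 ± 0.17 (adjusted p = 0.00109) and Gclc, of glutathione synthesis, by 0.71 ± 0.13 (adjusted p = 0.00067). Mt3 lost its call with normexp and Gclc in the authors' table. Mtf1, the metal-sensing factor that binds the metal response element, differed by 0.17 ± 0.08 (adjusted p = 0.101), and passed with quantile normalization (0.33, adjusted p = 0.00472), with the mean of its probes (0.97, adjusted p = 2.16e-05) and in the authors' table (0.51, adjusted p = 1.15e-05).

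**Figure D4:**
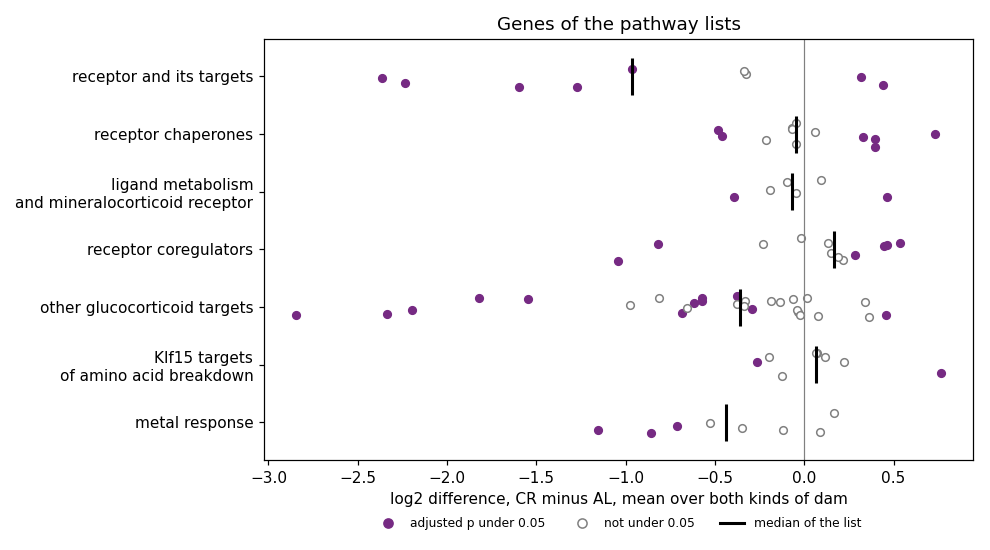
CR minus AL difference in the mean over both kinds of dam (horizontal axis, log2) for each gene of the receptor list and of 6 further lists (rows), filled where limma's adjusted p was under 0.05, with a black line at each list's median. The receptor list had the lowest median, -0.96, and the further glucocorticoid targets held 11 falls and 1 rise.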

How the data were processed

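The deposited values were scanner files of 16 one-colour Agilent arrays, with background-subtracted processed signal intensity per spot from Feature Extraction 10.5.1.1, per the submitters' processing notes, and the authors' table of log2 values, which was gene-centred in the deposited form (median 0 per probe; no source here gives its scaling) and served as an alternative. The authors' table followed the scanner values over 120 array pairs with a median r of 0.857 and a slope of 0.579. The members and gene lists were chosen with earlier results of these data known.

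Control and outlier spots were left out, spots of a probe were averaged, and the log2 intensity minus the array's 75th percentile was taken. A probe stayed in the fit if 4 or more arrays had it well above background, as 32081 of 41174 did. RefSeq accessions named 24844 probes, and 16330 stayed unnamed. The brightest probe stood for each gene. limma 3.58.1 in R 4.3.3 fitted all 24828 genes over the 4 groups with empirical Bayes, and the Benjamini-Hochberg method gave adjusted p over all genes, with a threshold of 0.05. Intervals use limma's moderated t quantile. All p-values measure only the spread between pools, and the number of arrays limits their precision. In simulated data for the control CR minus AL comparison over 24828 genes, 50% of 2-fold and 89% of 4-fold changes were recovered. The simulation changed a far smaller share of genes than the 32.3% called in the data, with noise independent between genes. These shares therefore do not give the recovery in the real comparison. Alternatives were quantile normalization, normexp (on median signals, since no mean signal column was in the files), probe filters, the mean of probes, the authors' table, slide and replicate blocks, a brain marker covariate and arrays left out, and, for the correlations, deviations centred by slide. From each pathway list up to 4 called genes with the largest change were picked per comparison, or, with none called, at most 2 of lowest p. The genes named are those picked in the mean CR minus AL comparison. Most genes picked only in other comparisons, such as Stip1 and Ncor1, are not described. Per1 in the diet comparison, Hsd11b1 and Mtf1 were added after their values were seen. Same-numbered arrays deviated together with r of -0.145 to 0.44, over 0.1 in 6 of 24 pairs. All 6 joined arrays of the same offspring diet on the same slide, with r of 0.393, 0.123, 0.113 and 0.44 among AL and 0.228 and 0.107 among CR arrays. Arrays of unlike number went over 0.1 in 11 of 72 pairs. Within a diet, a pairing by number and a shared slide cannot be told apart. The numbers were not taken to pair samples.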

Additional observations from a re-analysis of the deposited data

Results flagged for a closer look

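In the undernourished CR group Nr3c1 had its highest level, 3.17, in pool 3, and this pool stood apart from the other 3, whose levels were close to 3.01: the gap to the nearest was 0.896 of the group's range. It was 1 of 36 groups of 4 arrays looked at, and chance alone gives such a gap in about 1 in 20. The range of the group was narrow, with an SD of 0.08 (n = 4 pools).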

How the results depend on the processing

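The main settings called 5039, 8008 and 10682 genes for CR minus AL in the offspring of undernourished dams, those of control dams and the mean of both, with 3, 4 and 7 of the 9 receptor genes. With normexp these were 72, 554 and 1748 genes and 0, 0 and 3 receptor genes. With no filter on dim probes they were 10075, 12342 and 16365 genes, and the authors' table gave 11848 and 13992 for undernourished and control dams. With the brain covariate control gave 3154 genes and 2 receptor genes. Without the 5 skin or liver arrays undernourished dams gave 1 receptor gene, control dams 909 genes and 0 receptor genes, and the mean 5739 genes. The planned exclusion of such arrays also gave 1 receptor gene in undernourished dams and could be fitted only for undernourished CR minus AL and for undernourished minus control in CR. Without control AL pools 1 and 2 control gave 4384 genes and 2 receptor genes. All-gene medians of the mean comparison were 0.03 in the main setting, 0.12 with quantile, 0.16 with normexp, -0.12 unfiltered and 0.26 in the authors' table. For undernourished minus control in AL the count of 8 became 16 (quantile), 0 (normexp, authors' table) and 2 (all arrays above background). It became 13 (slide as a random block), 1969 (slide fixed), 5 (brain) and 3 (control AL pools 1 and 2 out). The interaction's 1 gene became 0 under normexp, all arrays above background, the authors' table, the replicate block, brain and control AL pools 1 and 2 out, and 12 with slide fixed. The maternal mean's 0 became 1 (quantile, brain, control AL pools 1 and 2 out), 2 (slide random) and 16 (slide fixed). Slide 2 minus slide 1 went to 248 (quantile), 231 (normexp), 0 (no filter), 884 (all arrays above background), 129 (mean of probes) and 787 (authors' table) beside 442, and slide 4 minus slide 3 to 0 (normexp) and 185 (all arrays above background) beside 312. The cause was not tested.

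The sign turned for Tsc22d3 in control dams (0.06) with quantile (-0.12), normexp (-0.15), mean of probes (-0.039), brain (-0.64), 5 arrays out (-0.74) and control AL pools 1 and 2 out (-0.39), in its mean in the authors' table (0.21), and in its interaction with 5 arrays out (0.097). It turned for Klf15 in control dams with mean of probes (0.27) and in the authors' table (undernourished 0.16, control 0.25, mean 0.21), for Sgk1 between AL slides with quantile (-0.087) and in the authors' table (-0.077), and in the authors' table for Bckdha (0.26), Hsp90aa1 (0.11), H6pd (0.10) and Ppp5c (0.095). The Ddit4 interaction (-0.07) turned with quantile (0.064), normexp (0.089), the authors' table (0.076), brain (0.44), 5 arrays out (0.46) and control AL pools 1 and 2 out (0.28), and ran from -0.56 to 0.40 with 1 array left out. Per1 in undernourished dams (-0.01) turned in the authors' table (0.51) and under both exclusions of skin or liver arrays (0.029), and ran from -0.22 to 0.14 with 1 array left out. The Hsd11b1 mean (-0.10) turned in the authors' table (0.34) and with 5 arrays out (0.076). With 1 array left out Tsc22d3 in control dams ran from -0.22 to 0.32 and Sgk1 between AL slides from -0.048 to 0.24.

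Leaving out 1 array at a time gave 3667 to 5851 genes (undernourished), 6183 to 9067 (control) and 9832 to 11221 (mean), with 1 to 4, 2 to 5 and 6 to 7 receptor genes. It gave 2 to 2319 genes for undernourished minus control in AL and 0 to 91 for the interaction, both highest without control AL pool 4, and 0 to 36 for the maternal mean, 0 in CR, 0 to 1627 between AL slides and 7 to 266 between CR slides. Numbers were not taken to pair the samples, and the replicate block gave 5060, 7963 and 10731 genes for CR minus AL.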
